A study of Homo sapiens with 4 samples.

Results

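Apolipoproteins are the proteins that coat lipid particles and keep cholesterol, triglycerides and other lipids soluble outside cells. The 6 genes APOA1, APOB, APOC1, APOD, APOE and APOM were taken by name from the 2864 genes with values in the deposited table, of which 2258 are protein-coding, and all 6 had reads in each of the 4 libraries. The libraries were made from RNA of A375, a human melanoma cell line with an activating BRAF mutation whose genotype is labelled wild type throughout. A375P was the untreated parental line, and A375R was the vemurafenib-resistant strain that the study derived from A375 by raising the drug stepwise, and which was kept under vemurafenib. A375+DMSO was A375 with 1‰ of the solvent DMSO for 48 h, and A375+VEM was A375 with 2 μM vemurafenib for 48 h. Vemurafenib inhibits the mutant BRAF kinase, and the study paired A375R with A375P for stable resistance and A375+VEM with A375+DMSO for acute treatment. There was 1 library per condition and 1 resistant strain, so differences between libraries could not be set against replicates, and p-values are not reported.

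APOA1 is the main protein of high-density lipoprotein and takes up cholesterol that the transporter ABCA1 exports. APOB is the large, non-exchangeable protein of low-density lipoprotein and chylomicrons, and both genes are known chiefly from liver and intestine. APOE is the exchangeable ligand by which lipoproteins bind receptors of the LDL receptor family, it is made in many tissues, and melanoma cells are known to secrete it. APOC1 is a small exchangeable apolipoprotein that hinders lipoprotein uptake. APOD and APOM belong to the lipocalins, which hold small lipids in a barrel, and APOM carries sphingosine-1-phosphate on high-density lipoprotein.

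The authors gave a read count for each gene and a TPM, a count per length of gene with the same total in every library, so that TPM can be compared between genes. Over the genes of the table the counts summed to between 1891215 and 2054277 per library, which falls short of the depth since the table is partial. The table covers names from the start of the alphabet to CAC and holds 8.48 to 8.94% of each library's TPM. A gene was compared between 2 libraries when it reached a TPM of 1 in at least 1 of them, and was called higher or lower where (TPM + 0.1) differed by more than 1.5-fold. Ratios of single genes are ratios of TPM without the 0.1, and log2 ratios are on (TPM + 0.1). The 95% intervals are exact intervals on the reads (Clopper-Pearson for ratios, Poisson for levels). They compare libraries and not conditions, and they cover counting error only.

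Positions are those of the authors' table, for which the submitters' processing notes name hg19. APOE lies on the plus strand of chromosome 19 from 45409006 to 45412652, and APOC1 follows it on the same strand from 45417504 to 45422606, with 4851 bases between them. APOA1 lies on the minus strand of chromosome 11 from 116706467 to 116708666, and 1834 bases of it are overlapped by APOA1-AS on the other strand, which had 1 to 7 reads per library. APOB lies on the minus strand of chromosome 2 from 21224301 to 21266945 and APOD on the minus strand of chromosome 3 from 195295573 to 195311076. APOM lies on the plus strand of chromosome 6 from 31620187 to 31625987, and its first 291 bases overlap BAG6 on the other strand. BAG6 had 5055 to 5740 reads per library against 13 to 41 for APOM, and C6orf47 lies 87 bases beyond the other end. Strand-specific counting is not given in the sources used here, so reads of APOM and BAG6, or of APOA1 and APOA1-AS, could be mixed where the genes overlap.

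Upstream sequence is shown for the neighbours APOE and APOC1, since they lie side by side and their levels did not change in parallel. The RefSeq promoter table matched 3 of the 6 genes, and the stretches below leave out bases that GENCODE annotates as UTR. Capitals mark GC boxes, searched as GGGCGG on both strands, and both sequences are on the plus strand of GRCh38.p14, a different build from that of the table.
APOE, chr19:44905546-44905753: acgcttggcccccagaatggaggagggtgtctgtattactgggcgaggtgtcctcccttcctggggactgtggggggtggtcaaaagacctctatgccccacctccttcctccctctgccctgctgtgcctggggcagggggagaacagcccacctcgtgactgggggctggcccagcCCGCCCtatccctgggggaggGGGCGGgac
APOC1, chr19:44914490-44914554: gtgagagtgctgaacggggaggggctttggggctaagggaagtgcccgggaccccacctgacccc

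In the 250 bases before its most upstream RefSeq start, APOE had GC boxes that begin 72 and 51 bases before that start. It also had TATAA beginning 31 bases before it, and CCAAT on the minus strand beginning 27 bases before it, which shares 1 base with TATAA. APOC1 had 1 GC box, 15 bases before its start, outside the stretch shown, and APOM had none of the motifs searched. Of 34943 windows of the same length in the table, 42.5% held a GC box, 19% TATAA and 32.0% CCAAT. The windows of these 3 genes did not hold CATGTG, the core of the element bound by MITF, which 9.45% of windows hold, nor the E-box CACGTG, which 6.32% hold. They also lacked the AP-1 site TGANTCA, which is in 6.59% of windows, and the nuclear receptor site AGGTCA, which is in 12.1%. GC content was 64.8% for APOE, 62.4% for APOC1 and 50.4% for APOM, against a median of 58.0% over all windows.

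Of the 6 genes, APOE reached the greatest TPM and APOD varied most. APOE was at the top in A375R, A375+DMSO and A375+VEM, and in A375P it was second to APOC1. Counting error did not separate this leading pair in A375P, where APOE was at 0.964 of APOC1 (95% interval 0.730 to 1.28), or in A375+DMSO, where it was at 1.23 (95% interval 0.956 to 1.59). APOE, APOC1 and APOA1 formed the upper group in every library, between 7.34 and 26.3 TPM, and were joined in A375+VEM by APOD. APOB was the lowest in A375P, A375+DMSO and A375+VEM, although with 179 to 228 reads it was well counted, because its 14121 bases spread those reads thinly. It was separated from the next gene up in A375+VEM, where APOM was 3.01 times as high (95% interval 2.05 to 4.29), but not from APOD in A375P and A375+DMSO, at 1.53 (95% interval 0.997 to 2.28) and 1.01. In A375R the lowest was APOD, and APOB next above it was 3.58 times as high (95% interval 1.37 to 13.3). APOM lay under the upper group in each library, and the gene just above it was separated by counting error in A375P, A375R and A375+DMSO but not in A375+VEM, where APOA1 was 1.43 times as high (95% interval 0.956 to 2.18). The 6 together had 43.2, 44.2 and 44.6 TPM in A375P, A375R and A375+DMSO, against 68.7 TPM in A375+VEM, so the A375+VEM library stood above the other 3.

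**Figure D1:**
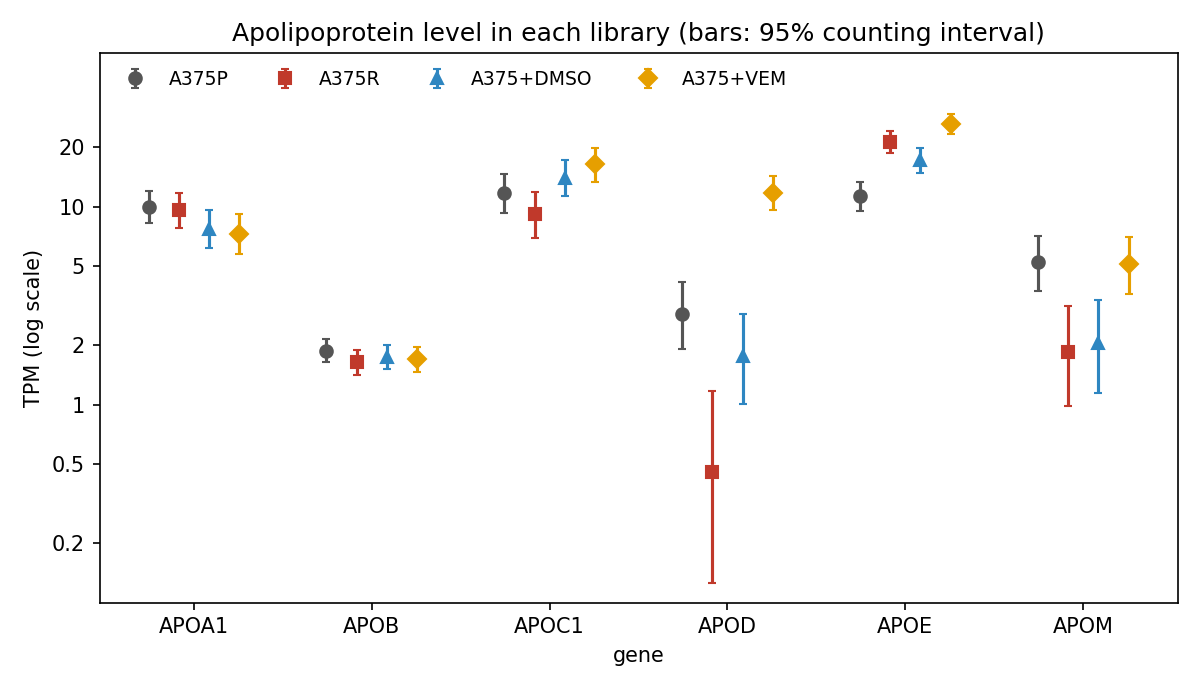
TPM of each apolipoprotein (log scale) in the 4 libraries, 1 point per library, with bars for the exact 95% Poisson interval on its reads. APOA1 spans 7.34 to 10.0 TPM and APOB 1.64 to 1.88, whereas APOD spans 0.457 to 11.8 TPM and APOE is lowest in A375P and highest in A375+VEM.

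The lipoprotein proteins APOA1 and APOB changed least. APOA1 had 112, 97, 81 and 76 reads in A375P, A375R, A375+DMSO and A375+VEM, which is 10.0, 9.61, 7.77 and 7.34 TPM. Its highest level was 1.37 times its lowest, and none of the 4 comparisons between libraries passed 1.5-fold. In A375+VEM it was at 0.732 of A375P, with a 95% interval from 0.540 to 0.989 that lies below 1. APOB had 228, 179, 197 and 191 reads in A375P, A375R, A375+DMSO and A375+VEM, or 1.88, 1.64, 1.74 and 1.70 TPM. Its span of 1.15 times was the narrowest of the 6, and its ratio was 0.869 in A375R against A375P (95% interval 0.711 to 1.06) and 0.976 in A375+VEM against A375+DMSO (95% interval 0.796 to 1.2). ALB, the serum albumin gene and a hepatocyte marker, spanned 1.39 times over the same libraries and is described further on with the other markers of that cell type. An interval that includes 1 does not show that 2 levels were equal.

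APOE was lower in A375P than in the other 3 libraries. It had 142, 242, 201 and 305 reads in A375P, A375R, A375+DMSO and A375+VEM, or 11.3, 21.4, 17.2 and 26.3 TPM. A375R was 1.89 times A375P (95% interval 1.53 to 2.34), and A375+VEM was 1.53 times A375+DMSO (95% interval 1.27 to 1.84). The libraries without vemurafenib differed by as much as the acute pair, with A375+DMSO at 1.52 times A375P (95% interval 1.22 to 1.89). Against A375+DMSO, APOE in A375R was 1.24 times as high (95% interval 1.03 to 1.51) and did not pass 1.5-fold. Both values near 1.5-fold fell under the threshold with each of the other scalings tried, with log2 ratios of 0.46 to 0.50 for A375+VEM and 0.50 to 0.52 for A375+DMSO.

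APOC1 did not follow its neighbour APOE into A375R. It had 82, 58, 91 and 106 reads in A375P, A375R, A375+DMSO and A375+VEM, or 11.8, 9.22, 14.0 and 16.4 TPM. A375R held the lowest level of APOC1, whereas for APOE it held the second highest. Against A375P, APOC1 in A375R was at 0.783, with a 95% interval from 0.550 to 1.11 that includes 1, and was not called. The ratio of APOE to APOC1 within a library was 0.964 in A375P, 1.23 in A375+DMSO, 1.60 in A375+VEM and 2.32 in A375R. The 95% interval of that ratio in A375R, 1.74 to 3.15, lay above those in A375P and A375+DMSO, which ended at 1.28 and 1.59. It overlapped the interval in A375+VEM, 1.28 to 2.02. APOC1 was called in 1 comparison, A375R against A375+DMSO, at 0.658 (95% interval 0.465 to 0.925), and this call was lost with DESeq2 size factors, at a log2 ratio of -0.58.

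APOD, a lipocalin that binds arachidonic acid and progesterone, separated the libraries most. It had 28, 4, 16 and 106 reads in A375P, A375R, A375+DMSO and A375+VEM, or 2.89, 0.457, 1.77 and 11.8 TPM. The A375+VEM library was high and the A375R library low, and their levels differed 25.8-fold. A375R was at 0.158 of A375P (95% interval 0.0403 to 0.452) and at 0.258 of A375+DMSO (95% interval 0.0628 to 0.801). A375+VEM was at 6.67 times A375+DMSO (95% interval 3.92 to 12.1) and at 4.09 times A375P (95% interval 2.67 to 6.44). Between the libraries without vemurafenib, A375+DMSO was at 0.612 of A375P, with a 95% interval from 0.310 to 1.17 that includes 1. With 4 reads in A375R the low value is known only roughly, and its level has an interval from 0.125 to 1.17 TPM.

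APOM was high in A375P and A375+VEM and low in A375R and A375+DMSO. It had 41, 13, 15 and 37 reads in A375P, A375R, A375+DMSO and A375+VEM, or 5.26, 1.85, 2.06 and 5.12 TPM. A375R was at 0.351 of A375P (95% interval 0.173 to 0.668), and A375+DMSO was at 0.392 of A375P (95% interval 0.202 to 0.724). A375R and A375+DMSO were not told apart, with a ratio of 0.895 (95% interval 0.392 to 2.02). A375+VEM was at 2.48 times A375+DMSO (95% interval 1.33 to 4.87) but at 0.974 of A375P (95% interval 0.607 to 1.56). Whether APOM counted as changed by acute vemurafenib thus depended on which library without the drug was its control. The overlapping gene BAG6 was at 165 to 180 TPM in the 4 libraries and did not follow this pattern, while C6orf47 was at 19.5, 20.5, 22.1 and 35.9 TPM in A375P, A375R, A375+DMSO and A375+VEM.

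**Figure D2:**
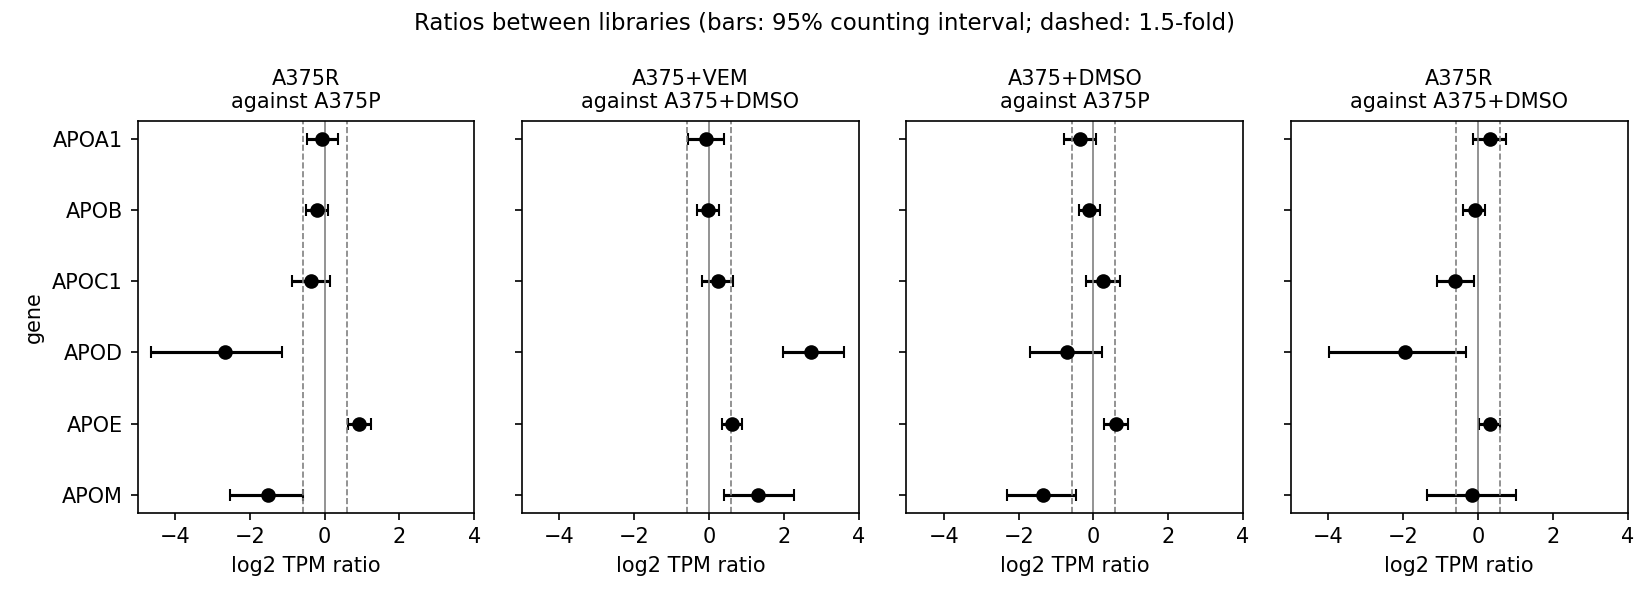
Log2 TPM ratio of each apolipoprotein in the 4 comparisons, with bars for the exact 95% interval on the reads of both libraries and dashed lines at 1.5-fold. APOD and APOM lie left of 0 in A375R against A375P and right of 0 in A375+VEM against A375+DMSO, and the intervals of APOA1 and APOB include 0 in each panel.

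Counted over each comparison, the 6 genes went in both directions in A375R. Against A375P, APOE was higher and APOD and APOM were lower, so 1 of 6 was called higher and 2 lower, where 26.8% of the 1689 genes compared were called higher and 17.5% lower. Their median log2 ratio was -0.27 and that of all genes compared was 0.10. Against A375+DMSO none of the 6 was called higher and 2, APOC1 and APOD, were called lower, where 10.5% of 1702 genes were called higher and 9.99% lower. The median log2 ratio of the 6 was then -0.12 and that of all genes 0.02. A low level of APOD in A375R was common to both controls, whereas APOM was low against A375P and APOC1 low against A375+DMSO. At log2 ratios of -2.42 and -1.75, APOD lay under all but 0.651% and 1.23% of the genes compared.

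In the acute pair, 3 of 6 were called higher and none lower, where 26.5% of 1784 genes were called higher and 19.7% lower. These were APOD, APOM and APOE, and the median log2 ratio of the 6 was 0.42 against 0.11 for all genes compared. APOD at a log2 ratio of 2.67 lay above 98.5% of the genes compared, APOM at 1.27 above 90.0% and APOE at 0.61 above 74.5%. Under TMM library sizes 21.4% of genes were called higher and 24.2% lower, and the median of all genes over the same comparison shifted to -0.04. With A375P as the control, a comparison added after the data were seen, APOD and APOE were called higher and the other 4 were not called. Shares of all genes called were not counted for it. The median log2 ratio of the 6 was 0.22 against 0.15 for all genes compared. APOD lay above 88.2% of those genes and APOE above 77.7%.

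The libraries without vemurafenib also differed from each other in these genes. In A375+DMSO against A375P, APOE was called higher and APOD and APOM lower, so 1 of 6 was higher and 2 lower, where 26.8% of 1720 genes were called higher and 18.9% lower. The direction of APOD, APOE and APOM in A375+DMSO against A375P was that of A375R against A375P. These comparisons share the A375P library, so their likeness is no independent support. The solvent, the culture and the library cannot be told apart with 1 library each.

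**Figure D3:**
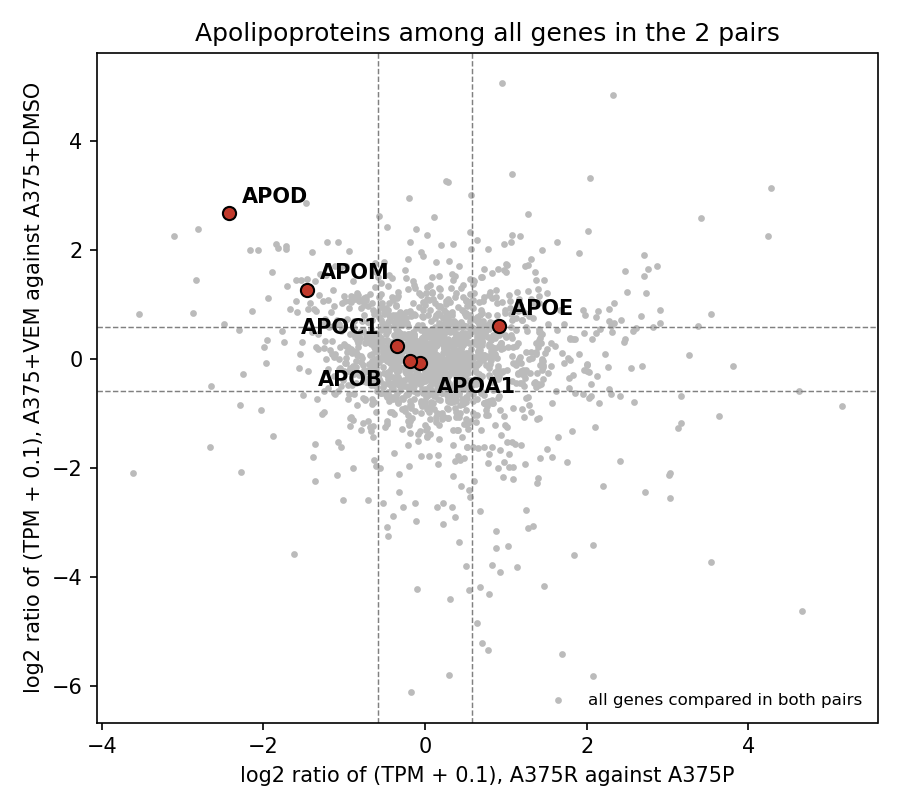
Log2 ratio of (TPM + 0.1) in A375R against A375P (horizontal) and in A375+VEM against A375+DMSO (vertical) for the 1656 genes compared in both pairs, in grey, with the 6 apolipoproteins in red and dashed lines at 1.5-fold. APOD at -2.42 and 2.67 and APOM at -1.46 and 1.27 sit in the upper left field, APOE at 0.91 and 0.61 in the upper right, and the other 3 in the centre.

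The genes with the most similar profile were sought among the 1645 other protein-coding genes that reached 1 TPM in some library, by the distance between profiles of log2(TPM + 0.1) over the 4 libraries, each centred on its own mean. With 4 libraries such a likeness describes these libraries only. For APOM the nearest were AVIL at 0.15, ATP6V0E1 at 0.20 and ANKRD10 at 0.25 (log2 units). ATP6V0E1, a subunit of the proton pump that acidifies lysosomes, was at 216, 84.5, 77.0 and 208 TPM in A375P, A375R, A375+DMSO and A375+VEM. As for APOM, A375P and A375+VEM were the high libraries and A375R and A375+DMSO the low ones, here with 543 to 1636 reads each. ATP6V0E1 was picked for this likeness, so its pattern is no separate evidence for that of APOM. For APOE the nearest were C15orf52 and B3GLCT at 0.14 and AAED1 at 0.15, and C15orf52 was at 61.8, 130.0, 97.5 and 160.0 TPM. For APOC1 they included ABHD12 at 0.13 and ATF6B at 0.17. APOD had no close match, with C14orf178 at 0.56, BHLHA15 at 0.78 and ADAM21 at 1.10, and the nearest of these had 0 to 6 reads per library. For APOA1 they were AZI2 at 0.08, BRSK1 and ADRM1 at 0.09, and for APOB they were C6orf106 at 0.01, ATP5O at 0.04 and BRAP at 0.05.

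Among 16 other apolipoprotein genes, 11 reached a TPM of 1 in some library. In A375R against A375P, 3 of 10 compared were called higher and 2 lower, with a median log2 ratio of 0.12. Over all genes 26.8% were called higher and 17.5% lower there. In the acute pair 3 of 11 were called higher and 1 lower, with a median of 0.21, where the shares were 26.5% and 19.7%. The gene called lower was APOO, a subunit of the inner mitochondrial membrane complex that shapes cristae despite its name. It was at 35.2 TPM in A375+DMSO and 14.3 in A375+VEM, a ratio of 0.405 (95% interval 0.328 to 0.499). APOL1, an intracellular and serum protein that lyses trypanosomes, was at 1.49, 4.10, 4.05 and 10.0 TPM in A375P, A375R, A375+DMSO and A375+VEM, and at 2.47 times in the acute pair (95% interval 1.95 to 3.16). APOL3 was higher in A375R against both controls, by 4.34 times A375P (95% interval 2.80 to 6.96) and 2.85 times A375+DMSO (95% interval 1.94 to 4.27). APOL6 was also higher against both, at 2.04 times A375P (95% interval 1.85 to 2.25) and 1.51 times A375+DMSO (95% interval 1.38 to 1.65). APOC4, which shares its locus with a readthrough transcript, had 3 reads in A375+DMSO and 7 in A375+VEM, a ratio of 2.35 with a 95% interval from 0.536 to 14.1.

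Genes that load or unload apolipoproteins were called in both directions. Of 6 transporters that export cholesterol and phospholipids, 3 of 4 compared were higher in A375R against A375P and none lower, and in the acute pair 2 of 4 were higher and 1 lower, with medians of 1.07 and 0.52. The shares over all genes were the 26.8% higher and 17.5% lower, and the 26.5% and 19.7%, given above. The same 3, ABCA7, ABCG1 and ABCG4 (the last named after its values were seen), were also called higher in A375+DMSO against A375P, and ABCA1 lower. Over all genes 26.8% were called higher and 18.9% lower there. Against A375+DMSO 1 of the 4, ABCA1, was called in A375R, higher, where 10.5% of all genes were called higher and 9.99% lower. ABCA1, which loads lipid onto APOA1 and APOE, was at 9.68, 11.3, 4.31 and 7.29 TPM in A375P, A375R, A375+DMSO and A375+VEM. It was 1.69 times as high in A375+VEM as in A375+DMSO (95% interval 1.48 to 1.93), but at 0.753 against A375P (95% interval 0.678 to 0.837). ABCG1, which exports cholesterol to formed lipoproteins, was 5.57 times A375P in A375R (95% interval 4.18 to 7.54) and at 0.262 in the acute pair (95% interval 0.192 to 0.353). With the drug-free controls exchanged neither call held, at 1.38 for A375R against A375+DMSO and 1.06 for A375+VEM against A375P, and ABCG1 in A375+DMSO was 4.04 times A375P. ABCA7, a close relative of ABCA1, was 4.09 times as high in A375+VEM as in A375+DMSO (95% interval 3.57 to 4.70). The list of lipase inhibitors, the APOB receptor, an APOA1-binding protein and APOB mRNA editing factors held 8 names, C19orf80 being another name of ANGPTL8. Of these names, 6 are in the table, all but C19orf80 and APOA1BP, and 2 reached a TPM of 1. ANGPTL4, a secreted inhibitor of lipoprotein lipase, was the higher of them in the acute pair, at 7.88 TPM in A375+DMSO and 35.1 in A375+VEM, a ratio of 4.46 (95% interval 3.65 to 5.48). ANGPTL8 had 9 and 5 reads there, a ratio of 0.559 (95% interval 0.147 to 1.86). In A375R against A375P, ANGPTL4 was the 1 gene compared and was called higher, at a log2 ratio of 1.06. Over all genes 26.8% were called higher and 17.5% lower there. Against A375+DMSO, ANGPTL4 in A375R was at 1.16 (95% interval 0.902 to 1.5) and was not called. In A375+DMSO it was 1.81 times A375P (95% interval 1.34 to 2.46). APOBEC1, the enzyme that edits APOB mRNA in intestine, had 1 read in A375P and none in the other libraries.

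LXR is a nuclear receptor for oxidised cholesterol that activates lipid-export genes, and 3 of the 6 apolipoproteins, APOC1, APOD and APOE, are on its list of 10 target genes. Of these 10, 3 of 7 compared were higher in A375R against A375P and 1 lower, and in the acute pair 5 of 8 were higher and 1 lower, with median log2 ratios of 0.23 and 0.68. Over all genes compared the shares were 26.8% higher and 17.5% lower, and 26.5% and 19.7%. The list overlaps both the 6 genes and the transporters, so its counts are not separate evidence. Of 7 lipid-synthesis targets of SREBP, the factor that answers low sterol, 4 were higher in A375R against A375P and none lower, and 4 were likewise higher in A375+DMSO against A375P. Over all genes 26.8% were higher and 17.5% lower in the former, and 26.8% and 18.9% in the latter. In the acute pair 1 was higher and 2 were lower, where 26.5% of all genes were higher and 19.7% lower. ACACB, a mitochondrial acetyl-CoA carboxylase, was 1.66 times as high in A375+VEM (95% interval 1.47 to 1.86), ACAT2 was at 0.486 (95% interval 0.419 to 0.564) and the fatty acid ligase ACSL3 at 0.442 (95% interval 0.414 to 0.471). Against A375+DMSO 1 of these 7 was higher in A375R, ACSL3 at 1.73 (95% interval 1.65 to 1.81), where 10.5% of all genes were called higher.

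**Figure D4:**
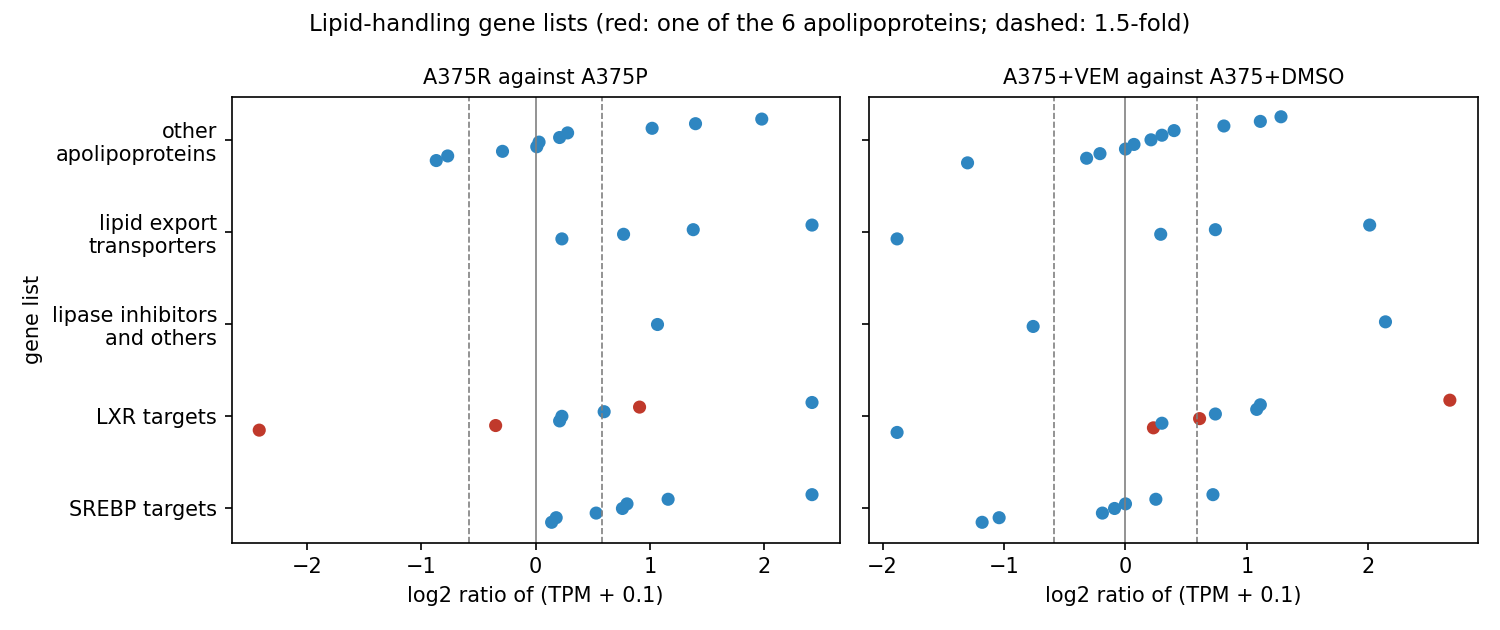
Log2 ratio of (TPM + 0.1) for each compared gene of the 5 lipid-handling lists in the study's pairs, 1 point per gene, in red where it is one of the 6 apolipoproteins and with dashed lines at 1.5-fold. Each list but the lipase inhibitors spreads over genes past and within the threshold, and ABCG1 is at 2.42 in the left panel and -1.88 in the right, neither of which held with the controls exchanged.

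The cell type labels were checked with marker lists. Of 8 melanocyte-lineage genes and MITF targets, 7 reached a TPM of 1, with sums of 93.0, 104, 69 and 103 TPM in A375P, A375R, A375+DMSO and A375+VEM. In the acute pair 5 of 7 were called higher and 1 lower, where 26.5% of all genes were called higher and 19.7% lower. The higher levels of APOD, APOE and APOM were in the same pair. With A375P as the control of A375+VEM, 3 of 7 were called higher and 1, BCAN, lower, and shares over all genes were not counted there. The median log2 ratio of the list was then 0.24, against 0.15 for all genes, and neither ASAH1 nor BCL2A1 was called. CA14, a carbonic anhydrase, was at 1.92, 0.568, 1.86 and 5.26 TPM, low in A375R and high in A375+VEM as APOD was. ASAH1, the lysosomal acid ceramidase, was at 32.4, 15.9, 16.2 and 32.9 TPM, high and low in the same libraries as APOM. Other genes of the list went another way. In A375+DMSO against A375P, 3 of 6 were called lower, ASAH1 among them, and 2, ACP5 and BEST1, higher. The shares over all genes in that comparison were 18.9% lower and 26.8% higher. In A375R against A375P 1 of 6 was called higher and 2 lower, with a median log2 ratio of 0.04. Over all genes 26.8% were called higher and 17.5% lower there. ACP5, BCL2A1 and BIRC7 were the others called higher in the acute pair, at log2 ratios of 0.65, 0.92 and 0.93, and BEST1 was called lower at -0.62. BIRC7 had 9 and 18 reads there and an interval that includes no change (ratio 2.01, 95% interval 0.859 to 5.09). BCL2A1 was also higher in A375R against both controls, at 4.89 times A375P and 8.84 times A375+DMSO. Macrophage markers were near 0, with sums of 0.416 to 2.15 TPM over 6 genes and C1QA at 0 reads in each library, although AOAH went from 5 to 26 reads in the acute pair. The 2 adipocyte markers summed to 0.0557 to 0.785 TPM, and AQP7, singled out after its values were seen, had 1 read in A375+DMSO and 14 in A375+VEM, a ratio of 14.1 (95% interval 2.14 to 596).

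Hepatocyte markers were present in each library, which the label of a melanoma line does not give. Of 12 such genes 9 reached a TPM of 1, and they summed to 129, 101, 101 and 97.8 TPM in A375P, A375R, A375+DMSO and A375+VEM. ALB had 1291, 931, 879 and 861 reads there, or 64.5, 51.5, 47.1 and 46.4 TPM. APOA1 was at 15.5, 18.7, 16.5 and 15.8% of the TPM of ALB in these libraries, and APOB at 2.92, 3.18, 3.71 and 3.67%. By contrast APOD was at 4.48, 0.888, 3.76 and 25.4% of ALB and APOE at 17.6, 41.6, 36.6 and 56.7%. In the acute pair the log2 ratios were -0.02 for ALB, 0.01 for AMBP and AHSG each, -0.32 for APOA2, 0.40 for APOC3, 0.21 for APOH, -0.08 for APOA1 and -0.03 for APOB. In A375R against A375P they were -0.32 for ALB, 0.16 for AMBP, 0.52 for AHSG, -0.77 for APOA2, -0.87 for APOC3 and -0.29 for APOH, of which APOA2 and APOC3 were called lower, beside -0.06 for APOA1 and -0.19 for APOB. In the acute pair AFP was the 1 marker called of the 9, lower at a ratio of 0.336 (95% interval 0.130 to 0.772). Over all genes 26.5% were called higher and 19.7% lower there. AFP was also lower in A375R against both controls, at 0.221 of A375P and 0.215 of A375+DMSO. ASGR1 was higher in A375R against both, at 1.60 and 1.90. Of the 9, 1 was thus called higher and 3 lower in A375R against A375P, beside 26.8% and 17.5% of all genes. The list holds the apolipoproteins APOA2, APOC3 and APOH, which were at 16.9 to 28.9, 5.16 to 10.7 and 4.69 to 6.22 TPM over the 4 libraries. Whether RNA of another source has a part in the levels of APOA1, APOB and the other apolipoproteins was not tested, and ALB, AMBP, AHSG and these 3 were singled out after their values were seen.

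**Figure D5:**
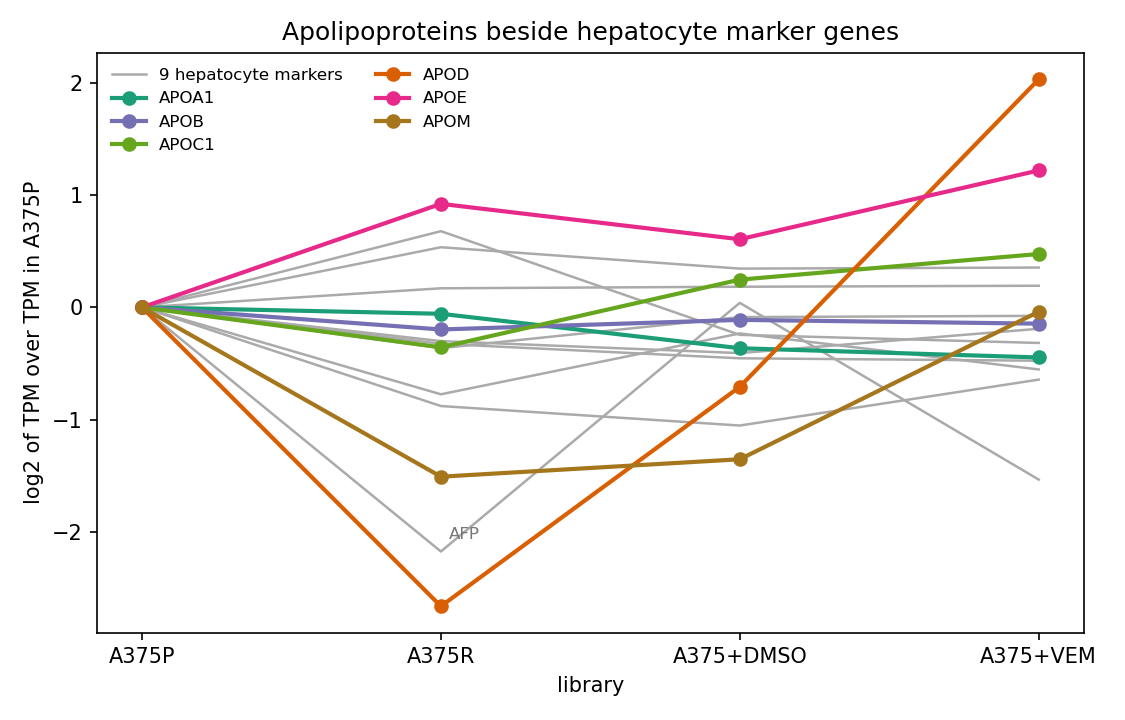
Log2 of TPM over TPM in A375P for the 6 apolipoproteins (coloured) and the 9 hepatocyte markers that reach 1 TPM (grey), with lines joining the values of a gene over 4 separate libraries that have no order. APOA1 and APOB run among the grey lines, apart from AFP, whereas APOD, APOE and APOM lie outside those lines, again AFP apart, in A375R.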

How the data were processed

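RNA of 4 A375 cultures was sequenced as 1 library each, grouped by the sample titles, and all 4 carry the same batch label. The authors deposited 1 table with raw read counts, TPM, gene lengths and positions. The deposited counts are whole numbers without normalization, and the deposited TPM equals the count per base of gene length times 1 constant per library. The submitters' processing notes name hg19 and HISAT2, TopHat2, Bowtie2 and HISAT, without roles or versions, and the counting program is not given in the sources used here. The table is part of an alphabetical gene list, and 1 incomplete line was left out.

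Ratios were computed on the TPM with a pseudocount of 0.1, a minimum TPM of 1 in at least 1 library and a threshold of 1.5-fold, and intervals at 95% from the counts. Conditions were not tested, since each has 1 library. The ratio step was tested on simulated data. Alternatives were pseudocounts of 1 and 0.01, a TPM of at least 5, no filter, a 2-fold threshold, and scaling to a median ratio of 1, by edgeR's TMM or by DESeq2 size factors. A375P as the control of A375+VEM was added after seeing the data. The 6 genes and all lists were chosen with earlier results of these data known. Named genes were the 6, their 3 nearest profiles, and list members called in both comparisons of A375R in 1 direction or in the acute pair. Some genes that this rule names are not reported here. Scaling used edgeR 4.0.16 and DESeq2 1.42.0 in R 4.3.3, and the other steps scipy 1.17.1, pandas 2.3.3 and numpy 2.4.6 in Python 3.11.15. Sequences came from RefSeq (GRCh38.p14) and UTRs from GENCODE.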

Additional observations from a re-analysis of the deposited data

Results flagged for a closer look

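APOD and APOM were past 1.5-fold in opposite directions in the study's pairs. APOD had a log2 ratio of -2.42 in A375R against A375P and of 2.67 in A375+VEM against A375+DMSO, and APOM one of -1.46 and 1.27. With 1 library per condition this opposition was not tested. Of 1656 genes compared in both pairs, 200 (12.1%) were past the threshold in opposite directions, 88 of them (5.31% of the 1656) lower in A375R and higher in A375+VEM, as these were. When the drug-free controls were exchanged, APOD kept both directions, at -1.75 in A375R against A375+DMSO and 1.99 in A375+VEM against A375P. APOM kept neither call, at -0.15 and -0.04.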

How the results depend on the processing

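Each count of called genes out of the 6 was recomputed under every alternative. The 3 called in A375R against A375P and the 3 called in A375+VEM against A375+DMSO became 2 or stayed 3. For A375+DMSO against A375P, 3 became 1 with a pseudocount of 1 TPM and with a threshold of 2-fold, where APOM was the gene left. The 3 became 2 with each of the 3 other scalings, where APOE was lost, and with a TPM of at least 5, where APOD was lost. For A375R against A375+DMSO, 2 became 1 with a pseudocount of 1 TPM, DESeq2 size factors and a threshold of 2-fold, where APOD was left, and with a TPM of at least 5, which APOD does not reach. The log2 ratios kept the sign of every call under both other pseudocounts and the 3 other scalings. With A375P as the control of A375+VEM, APOM turned from 1.27 to -0.04 and APOE went from 0.61 to 1.21, and the cause was not tested. No paired analysis was possible because each condition has 1 library, and no library could be left out for the same reason. APOD in A375R rests on 4 reads and APOM on 13 to 41 per library, so these ratios are the least precise.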
